A study of Mus musculus with 6 samples.

Results

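The data are RNA-Seq of cultured mouse renal tubular epithelial cells (TECs), taken from the kidney as primary cells, in which 7 kidney lineage transcription factors were read out. The factors, Pax2, Pax8, Hnf4a, Lhx1, Emx2, Gata3 and Wt1, were chosen by gene name, whatever their level, from the 30315 genes listed. All 7 were listed, and for 5 of them the mean over the libraries was 1 FPKM or more (a read count scaled to the exon length of the gene and to library size), the level above which genes were tested. Hnf4a and Wt1 lay under that level.

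The cells came from kidney of the C57BL/6 strain and were grown to about 50% confluence. In 3 libraries the cells carried siSox9, which is a small interfering RNA that silences Sox9, and in 3 libraries the control siRNA siNC. Transfection preceded hypoxia/reoxygenation (H/R) by 12 h, and H/R, a model of ischemic injury in the dish, was 6 h in glucose-free medium at 1% oxygen followed by 18 h of reoxygenation in complete medium. Both groups went through H/R, so the comparison is of siSox9 with siNC after H/R, and no library from untreated cells is part of it. The labels do not say whether the replicates came from separate animals or cultures, so the p-values measure the spread between these libraries, which may be technical.

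Pax2 and Pax8 are paired-box factors that act together at the start of the kidney lineage and mark most nephron and duct epithelium during development. The ureteric bud, which grows into the collecting duct, depends on Emx2, Gata3 and Lhx1, and Lhx1 is also used as the early nephron takes shape. Hnf4a drives the gene program of the proximal tubule, and Wt1 is needed in nephron progenitors and stays on in podocytes, the filter cells of the glomerulus. Sox9 itself is active in the ureteric tip and returns in injured tubules, which is the setting in which the study silenced it.

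RefSeq gives a promoter window, 250 bases before and 50 after a gene start, for 6 of the 7 factors in GRCm38.p6, and some factors have more than 1 start. The windows differ in CpG, the dinucleotide that marks island promoters. Over all 32851 windows of 27025 genes the median is 7 CpG in 300 bases. The window of Lhx1 holds 31, that of Emx2 26 and that of Gata3 22. The 3 windows of Pax2 hold 30, 23 and 7. Pax8 holds 7, and each of the 2 windows of Hnf4a holds 4. The stretches below come from windows with 23 CpG (Pax2), 7 (Pax8) and 4 (Hnf4a), so the top of this range is not shown. They are shown because Pax8 and Pax2 were well detected in these cells and Hnf4a barely so. They are the bases directly before a start, 5′ to 3′ on the gene's strand, with CpG in capitals.
Pax2, chr19:44755502-44755751, + strand: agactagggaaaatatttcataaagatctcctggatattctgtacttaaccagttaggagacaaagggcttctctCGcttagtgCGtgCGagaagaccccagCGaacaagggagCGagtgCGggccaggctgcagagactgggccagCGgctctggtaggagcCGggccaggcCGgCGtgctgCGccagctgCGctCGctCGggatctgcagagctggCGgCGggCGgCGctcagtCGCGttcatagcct
Pax8, chr2:24475600-24475849, - strand: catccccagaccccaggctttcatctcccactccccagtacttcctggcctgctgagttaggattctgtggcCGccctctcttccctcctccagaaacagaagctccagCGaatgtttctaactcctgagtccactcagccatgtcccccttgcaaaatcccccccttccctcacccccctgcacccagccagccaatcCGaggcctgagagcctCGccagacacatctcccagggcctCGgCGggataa
Hnf4a, chr2:163506607-163506807, + strand: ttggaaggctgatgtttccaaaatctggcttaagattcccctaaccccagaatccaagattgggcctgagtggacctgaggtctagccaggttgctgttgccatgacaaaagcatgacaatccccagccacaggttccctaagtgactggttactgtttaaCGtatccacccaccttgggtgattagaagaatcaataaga
The Pax2 stretch holds 20 CpG in 250 bases, the Pax8 stretch 6 in 250 bases and the Hnf4a stretch 1 in 201 bases. The Hnf4a stretch is from the upstream window of that gene, and the other window lies at chr2:163546905-163547204. It ends just before the Hnf4a gene position given below, which is ahead of the RefSeq start. Which Hnf4a start these cells use was not tested. The letters AACAAT and AACAAAG, the core of many SOX motifs, were searched on both strands of each 300-base window. They occurred in none of the windows of these factors, and in 15.7% of all windows. This is a search of letters only, and says nothing of binding.

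Sox9, the targeted gene, was measured first. It stood at 8.93, 8.61 and 9.07 FPKM in siSox9 replicates 1, 2 and 3 and at 25.7, 26.5 and 25.6 FPKM in siNC. Sox9 thus fell to 34.2% of the siNC mean (log2 difference -1.45, SE 0.03, limma adjusted p = 7.03e-06), and every library matched its label. Library totals recovered from the FPKM values were alike, 23893197 to 25725743 reads. By a chi-square of read counts per gene, libraries of different siRNA differed most (20.5 to 23.3 per gene) and those of the same siRNA less (1.89 to 6.87), with siNC replicate 1 the farthest from its own group. Limma called 3650 of 12009 genes tested at an adjusted p under 0.05, which is 30.4%. Of these, 1532 were higher and 2118 lower with siSox9. The split turned to 1959 higher and 1765 lower when each library was centred on its median, and to 1812 and 1797 after quantile normalization.

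Levels of the factors, which FPKM makes comparable between genes of different length, followed one order. From the highest mean over the 6 libraries to the lowest it was Emx2 (18.2 FPKM), Pax8 (14.9), Pax2 (11.4), Gata3 (4.62), Lhx1 (2.89), Wt1 (0.719) and Hnf4a (0.0125). Each factor was above the next one in all 6 libraries. Only the ranges of Emx2 and Pax8 touched over the 6 libraries, and they were apart within each group. The ratio of means was 1.23 between Emx2 and Pax8, 1.30 between Pax8 and Pax2, 2.47 between Pax2 and Gata3, 1.60 between Gata3 and Lhx1, and 4.01 between Lhx1 and Wt1. Among the 30315 genes listed, Emx2 ranked at percentile 90.5 of mean FPKM, Pax8 at 88.4 and Pax2 at 85.5. Gata3 was at percentile 74.4, Lhx1 at 69.3, Wt1 at 57.9 and Hnf4a at 19.2.

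**Figure D1:**
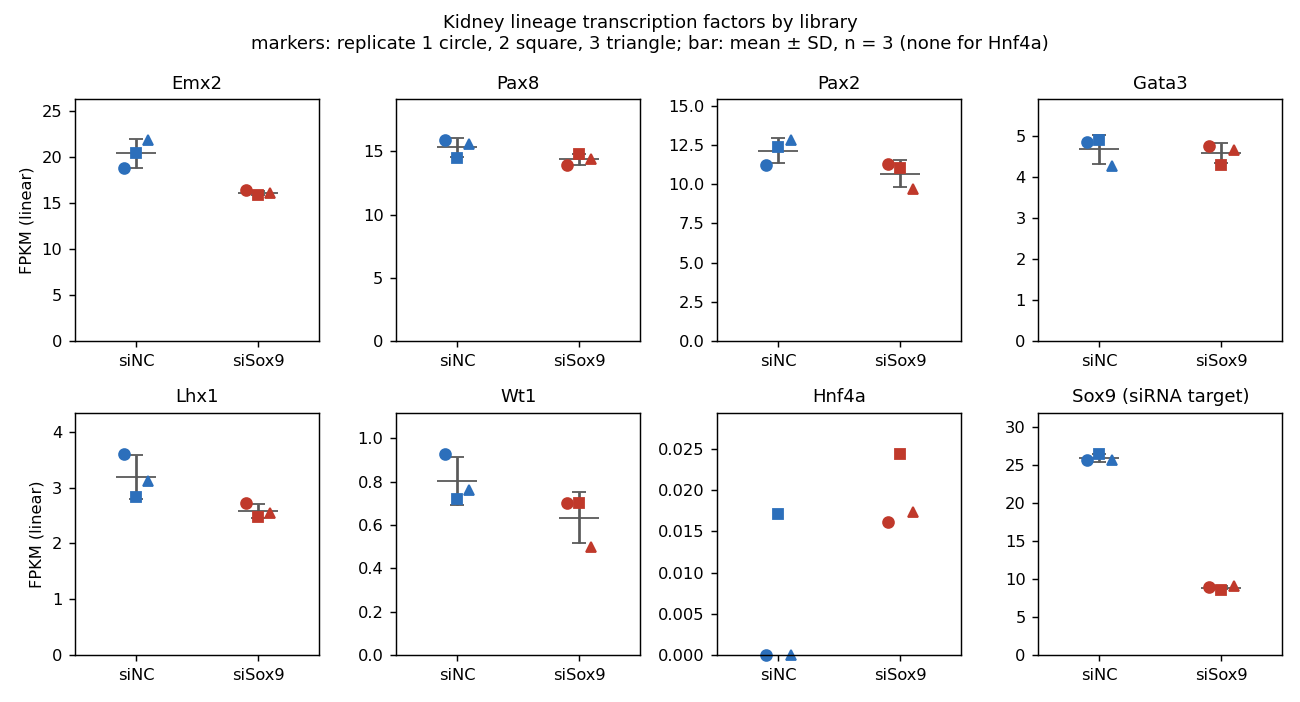
FPKM of each lineage factor and of Sox9 in every library, on linear axes from 0 with a scale of its own in each panel; circles, squares and triangles are replicates 1, 2 and 3, and bars are the mean ± SD (n = 3), left out for Hnf4a. The siSox9 values of Emx2, 15.9 to 16.3 FPKM, lie under all siNC values, 18.8 to 21.8, while those of Pax2, Pax8 and Gata3 overlap with siNC.

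The paired-box factors came close to each other in level. Pax2 (ENSMUSG00000004231, chr19:44756045-44837871, + strand, GRCm38) was at 11.3, 11.0 and 9.72 FPKM with siSox9 and at 11.2, 12.3 and 12.8 FPKM with siNC. Only siNC replicate 1 lay inside the siSox9 range, and siSox9 replicate 3 was the lowest. The means were 10.7 ± 0.838 and 12.1 ± 0.811 FPKM (SD, n = 3 each). The difference, -0.17 on the log2(FPKM + 1) scale (SE 0.07, 95% interval -0.33 to -0.01), did not pass limma's test (adjusted p = 0.0937). It passed without siNC replicate 1 (-0.22, adjusted p = 0.0430) and with limma voom on the recovered reads (-0.18, adjusted p = 0.0283), a test that called 35.4% of 10479 genes. Between 1256 and 1724 reads per library stand behind these values.

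Pax8 (ENSMUSG00000026976, chr2:24420560-24475599, - strand) was at 13.9, 14.8 and 14.4 FPKM with siSox9 and at 15.9, 14.5 and 15.6 FPKM with siNC. The groups overlapped, since siNC replicate 2 was below siSox9 replicate 2. The log2 difference of -0.08 (SE 0.04, 95% interval -0.19 to 0.02) did not pass (limma adjusted p = 0.189), nor did it under any of the 14 alternatives, which gave -0.12 to -0.058.

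Emx2, a homeobox factor of the ureteric bud, was the one tested lineage factor past the threshold of limma on log2(FPKM + 1). Emx2 (ENSMUSG00000043969, chr19:59458372-59465357, + strand) stood at 16.3, 15.9 and 16.0 FPKM with siSox9 and at 18.8, 20.4 and 21.8 FPKM with siNC. All siSox9 libraries were below all siNC libraries, and the siNC libraries were the more spread of the groups. The mean was 16.1 ± 0.231 FPKM against 20.3 ± 1.53 FPKM, 79.1% of siNC. Emx2 fell by 0.32 on the log2 scale (SE 0.05, 95% interval -0.44 to -0.19, limma adjusted p = 0.00464). It stayed past the threshold in each of 14 alternatives, with log2 differences from -0.37 to -0.27 and adjusted p from 0.000213 to 0.0222. An exact permutation test of its 3 against 3 values gave p = 0.1, the smallest such a design allows. In bulk RNA, fewer cells with Emx2 and less Emx2 RNA per cell cannot be told apart.

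Reads at the Emx2 locus can have 2 sources. Emx2os, an antisense transcript, shares 264 exon bases with Emx2, and how strand was treated in the counting is not given in the sources used here. Emx2os averaged 2.22 FPKM with siSox9 and 2.76 FPKM with siNC (log2 difference -0.22, limma adjusted p = 0.0428). Over its whole exon length Emx2os was under the level of Emx2, but reads in the shared bases were not counted apart. The part of Emx2os in the Emx2 values was not tested. Gata3, Pax8 and Pax2 also have overlapping transcripts, all of lower level. Of these, 1700039E22Rik, antisense to Pax2 with no shared exon base, was at 0.604 FPKM with siSox9 and 1.05 FPKM with siNC, too low to be tested. Lhx1os, beside Lhx1 and not overlapping it, was at 2.23 and 2.16 FPKM (limma adjusted p = 0.894).

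Lhx1, a LIM homeobox factor of the nephric duct and early nephron, had a difference that turned on single libraries. Lhx1 (ENSMUSG00000018698, chr11:84518284-84525535, - strand) was at 2.72, 2.48 and 2.55 FPKM with siSox9 and at 3.61, 2.84 and 3.12 FPKM with siNC. The groups did not overlap, and siNC replicate 1 was the highest. The log2 difference was -0.22 (SE 0.07, 95% interval -0.40 to -0.05) and missed the threshold (limma adjusted p = 0.0605). Without siNC replicate 2 it was -0.28 (adjusted p = 0.0348), and without siNC replicate 1 it was -0.15 (adjusted p = 0.123). Limma voom on the reads, 248 to 365 per library, gave -0.30 (adjusted p = 0.0262), and the fit with the replicate number as a block gave an adjusted p of 0.0434.

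Gata3, a zinc finger factor of the nephric duct and collecting duct, was level between the groups. Gata3 (ENSMUSG00000015619, chr2:9857078-9890034, - strand) was at 4.76, 4.30 and 4.66 FPKM with siSox9 and at 4.85, 4.90 and 4.27 FPKM with siNC. The lowest of the 6 values was in siNC. The log2 difference of -0.025 (SE 0.06, 95% interval -0.17 to 0.12, limma adjusted p = 0.785) had no fixed sign, since it was above 0 after median centring and after quantile normalization.

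Hnf4a, the proximal tubule factor, was hardly present. Hnf4a (ENSMUSG00000017950, chr2:163506808-163572910, + strand) was at 0.0161, 0.0245 and 0.0173 FPKM with siSox9, and at 0, 0.0172 and 0 FPKM with siNC. These values are 2, 3 and 2 reads against 0, 2 and 0 reads. No library exceeded 3 reads, the number that a count of 0 allows, worth 0.0242 to 0.0260 FPKM for this gene, so no fold is given. In the fit over all 28122 genes above 0 FPKM, which called 9.6% of them, 5.63% lower and 3.97% higher, Hnf4a did not pass (limma adjusted p = 0.566).

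Wt1, the zinc finger factor of progenitors and podocytes, was low and present in every library. Wt1 (ENSMUSG00000016458, chr2:105126529-105173616, + strand) was at 0.703, 0.699 and 0.50 FPKM with siSox9 and at 0.930, 0.722 and 0.760 FPKM with siNC. Reads numbered 112, 110 and 74 against 143, 108 and 117. The groups did not overlap, although siSox9 replicate 1 and siNC replicate 2 nearly met. The log2 difference from the fit over all genes was -0.14 (SE 0.08, 95% interval -0.35 to 0.06) and did not pass (limma adjusted p = 0.402). Its size depended on single libraries and on the scale, from -0.083 without siSox9 replicate 3 to -0.34 by limma voom on the reads (adjusted p = 0.221). The difference passed in none of 13 alternatives, although for Wt1 the alternative with no filter is the same fit over all genes. Wt1 also marks mesothelium, the lining of the kidney surface. Of the 8 mesothelial markers, Wt1 included, 3 reached 1 FPKM and 1 of the 3 was called, against 30.4% of all genes tested. That 1 was Msln, which rose from 47.7 ± 3.01 to 79.8 ± 0.852 FPKM (limma adjusted p = 0.000107). Krt19 and Upk3b did not pass, and Lrrn4, Muc16, Gpm6a and Rspo1 lay under 1 FPKM and did not pass either. The part of mesothelial cells in the level of Wt1 was not tested.

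Of the 5 factors tested, 1 was lower and 0 were higher with siSox9 by limma's adjusted p. Over all genes tested 17.6% were lower and 12.8% higher by that measure. At an unadjusted p under 0.05, 3 of the 5 were lower and 0 higher, where 23.6% of all genes were lower and 18.5% higher. The groups did not overlap for 2 of the 5, Emx2 and Lhx1, against 46.3% of all genes tested. The median log2 difference of the 5 was -0.17, that of all genes tested -0.01. By limma voom, which called 20.8% of genes as lower and 14.5% as higher, Pax2, Lhx1 and Emx2 were lower and 0 were higher. With 5 factors, nothing particular to them is read from these counts.

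**Figure D2:**
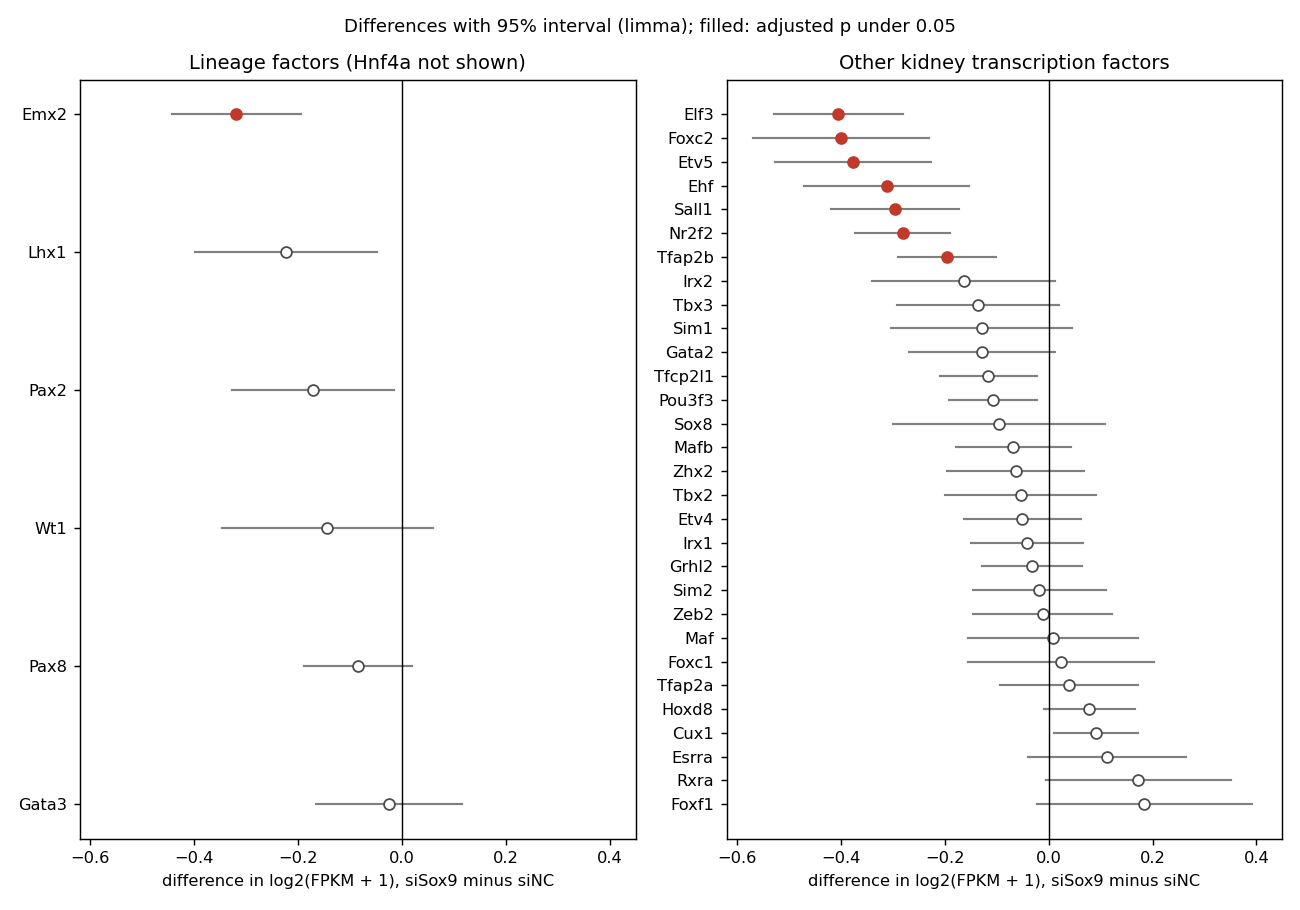
Difference in log2(FPKM + 1), siSox9 minus siNC, with its 95% interval for the lineage factors other than Hnf4a (left) and for other kidney transcription factors with a mean of at least 1 FPKM, not all of them shown (right); filled points passed limma's test at an adjusted p under 0.05, and Wt1 comes from the fit over all genes. Filled points all lie to the left of 0, Emx2 at -0.32 and the others between -0.40 and -0.20.

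The factors were set beside 65 other transcription factors of kidney lineages, of which 32 reached 1 FPKM. Of the 32, 8 were lower with siSox9 and 0 were higher by limma at an adjusted p under 0.05, which is 25.0% called against the 30.4% of all genes. At an unadjusted p under 0.05, 10 were lower and 1 higher, and limma voom, run on 29 of the 32, called 10 lower and 2 higher. Over all genes tested 23.6% were lower and 18.5% higher at an unadjusted p, and 20.8% and 14.5% by limma voom. The median log2 difference of the 32 was -0.07. The higher calls were Cux1 and Rxra by limma voom, Cux1 also after median centring or quantile normalization, and Foxf1 without siNC replicate 1, genes named after their values were seen.

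Duct and ureteric bud factors formed the largest group of detected genes. The list holds 18, among them Pax2, Emx2, Lhx1, Gata3 and Sox9, and 16 of the 18 reached 1 FPKM. Of these 16, 5 were lower, where 17.6% of all genes tested were lower. The 5 include Emx2 and also Sox9, the gene that the siRNA targets. Elf3, an epithelial ETS factor, fell by 0.40 on the log2 scale (limma adjusted p = 0.00172), from 11.2 ± 0.387 to 8.20 ± 0.585 FPKM. Etv5, an ETS factor downstream of Ret signaling in the ureteric tip, fell by 0.38 (adjusted p = 0.00504), and Ehf, another epithelial ETS factor, fell by 0.31 (adjusted p = 0.0129). Tfcp2l1, a collecting duct factor named after its values were seen, was at 16.0 ± 0.242 and 17.5 ± 0.801 FPKM (adjusted p = 0.0641), and it was called lower without siNC replicate 1 (adjusted p = 0.0185).

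Factors of the other segments were fewer in number. Of the 13 proximal factors 6 reached 1 FPKM and 0 passed limma's test. At an unadjusted p under 0.05, 1 was higher, and by limma voom 2 of 4 were higher. Over all genes tested 30.4% passed limma's test, 18.5% were higher at an unadjusted p under 0.05, and 14.5% were higher by limma voom. Of the 11 loop and distal factors 6 were at or above 1 FPKM and 1 was lower, where 17.6% of all genes tested were lower. That 1 was Tfap2b, lower by 0.20 on the log2 scale (limma adjusted p = 0.0108). Irx2, the highest of the loop and distal factors, was at 16.1 ± 1.53 and 18.1 ± 1.23 FPKM (adjusted p = 0.142).

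Progenitor factors were mostly under 1 FPKM. Of the 12, Wt1 included, 1 reached 1 FPKM, Sall1, and it fell from 6.99 ± 0.299 to 5.52 ± 0.352 FPKM (log2 difference -0.30, limma adjusted p = 0.00602). Six2, which keeps progenitors from differentiating, had 3 to 11 reads per library. Of the 8 podocyte factors, Wt1 again included, 4 reached 1 FPKM and 1 was lower, where 17.6% of all genes tested were lower. That 1 was Foxc2, lower by 0.40 on the log2 scale (adjusted p = 0.00638). Zhx2 was the highest podocyte factor at 5.81 ± 0.202 and 6.13 ± 0.465 FPKM (adjusted p = 0.431). Among the 12 stromal factors 5 reached 1 FPKM, and Nr2f2, a nuclear receptor of the stroma, fell by 0.28 (adjusted p = 0.00222).

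Known targets of the lineage factors were read from a list of 24 genes, of which 21 were listed and 6 reached 1 FPKM. Of the 6, 3 were higher and 2 lower with siSox9, where 12.8% of all genes tested were higher and 17.6% lower. Wnt4, a signal for nephron formation under Pax2 and Wt1, fell from 1.66 ± 0.0616 to 0.967 ± 0.119 FPKM (log2 difference -0.43, limma adjusted p = 0.00433). Podxl, a podocyte surface protein and Wt1 target, fell from 11.6 ± 0.159 to 7.48 ± 0.346 FPKM (-0.57, adjusted p = 0.000158). Cdh16, the kidney-specific cadherin, controlled by Pax8 in thyroid, rose from 101 ± 2.84 to 130 ± 0.424 FPKM (0.36, adjusted p = 0.000307). Cdkn1c, a cell cycle inhibitor of podocytes, rose from 3.20 ± 0.173 to 6.22 ± 0.488 FPKM (0.78, adjusted p = 0.000234). Hnf4a targets of liver and proximal tubule on the list, such as Apoa1, Apob and Pck1, all lay under 1 FPKM. Ret, the ureteric tip receptor that Gata3 and Pax2 control, had 21 to 46 reads per library, at 0.137 ± 0.0212 FPKM with siSox9 and 0.254 ± 0.0292 FPKM with siNC, and it was lower in the fit over all genes (limma adjusted p = 0.0479).

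Segment markers were then compared with the factors. Epithelial markers were all detected, 10 of 10, with Krt8 at 2123 ± 58.2 and 2089 ± 56.6 FPKM, Krt18 at 1254 ± 33.3 and 1194 ± 43.0 FPKM and E-cadherin (Cdh1) at 160 ± 4.98 and 164 ± 4.09 FPKM, so the libraries carried the epithelium that the label names. Pax8 and Pax2 were in every library with them.

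Proximal tubule markers went with the low Hnf4a. Of 20, 17 were listed and 4 reached 1 FPKM: Dab2, Ggt1, Gatm and Lrp2. Slc34a1, the phosphate transporter that defines the segment, had at most 1 read in any library, and Cubn, a receptor of the brush border, was at 0.419 to 0.515 FPKM. Lrp2, the receptor megalin, stood at 2.41 ± 0.156 FPKM with siSox9 and 2.13 ± 0.0853 FPKM with siNC (limma adjusted p = 0.157). Dab2, an adaptor of endocytosis not confined to this segment, rose from 8.89 ± 0.897 to 11.8 ± 0.511 FPKM (log2 difference 0.38, adjusted p = 0.00648). Ggt1 was at 6.77 ± 0.194 and 7.50 ± 0.714 FPKM and Gatm at 4.54 ± 0.554 and 5.29 ± 0.150 FPKM, neither past the threshold. The summed proximal list ranged from 26.6 to 27.3 FPKM with siSox9 and from 23.2 to 26.7 FPKM with siNC.

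Loop and distal transport genes were scarce too, beside the detected Irx1, Irx2 and Pou3f3. Umod had 0 to 4 reads per library, Slc12a1 8 to 19 and Slc12a3 1 to 4. Of 9 loop markers 3 reached 1 FPKM and all 3 were called, against 30.4% of all genes tested. Cldn16 fell from 6.67 ± 0.641 to 4.36 ± 0.386 FPKM (limma adjusted p = 0.00272) and Cldn19 from 1.45 ± 0.115 to 0.925 ± 0.127 FPKM (adjusted p = 0.0155), both tight junction proteins of the thick ascending limb. Bst1, an ectoenzyme also made by other cells, rose from 9.90 ± 0.566 to 15.9 ± 0.563 FPKM (adjusted p = 0.000193). Of 7 listed distal markers 3 reached 1 FPKM, the channels Trpm7 and Trpm6 and the exchanger Slc8a1, and Trpm7, which most cells make, was higher (adjusted p = 0.0120).

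Collecting duct markers were split between keratins and water channels, beside the well detected Emx2 and Gata3. Of 12 principal cell markers 5 reached 1 FPKM. Krt19 was at 284 ± 1.69 and 293 ± 2.15 FPKM, Krt7 at 236 ± 1.2 and 184 ± 1.28 FPKM and St6gal1 at 36.9 ± 0.187 and 33.6 ± 0.810 FPKM with siSox9 and siNC, and the latter pair rose (limma adjusted p = 0.000168 and 0.0149). These genes are shared with other epithelia. Hsd11b2, the enzyme that shields the mineralocorticoid receptor, was at 9.60 to 11.2 FPKM and the sodium channel subunit Scnn1a at 5.53 to 6.11 FPKM over the 6 libraries, both named after their values were seen. The aquaporin Aqp2 had at most 1 read in a library and Aqp3 at most 6. None of 7 listed intercalated cell markers reached 1 FPKM, and Foxi1, the factor that makes those cells, had at most 1 read. Among ureteric tip markers Wnt11, a signal from the tip, was at 1.03 ± 0.110 and 1.19 ± 0.0534 FPKM (adjusted p = 0.308).

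The nephron identity kept by these cultured cells was, by factor levels, not that of 1 segment. Pax2 and Pax8 mark most nephron and duct epithelium. Emx2, Gata3 and Lhx1 belong to the duct lineage, though Lhx1 also acts in the early nephron. Of 18 duct factors 16 reached 1 FPKM, and of 11 loop and distal factors 6 did. Among the latter, means were 17.1 FPKM for Irx2, 8.08 for Pou3f3 and 5.89 for Irx1. Factor levels thus did not single out the duct. Hnf4a did not exceed 3 reads. Slc34a1, Umod, Slc12a1, Slc12a3 and Aqp2, each the defining transport or secreted product of a mature segment, all stayed under 1 FPKM. Other markers of these segments did reach 1 FPKM. They were 4 of 17 listed proximal, 3 of 9 loop, 3 of 7 listed distal and 5 of 12 principal cell markers. Among them were Lrp2 (mean over the 6 libraries 2.27 FPKM), Cldn16 (5.52) and Hsd11b2 (10.4). Both siRNAs had the same lineage factors above and below a mean of 1 FPKM, a coarse measure that differences of the size seen could hardly change. Within it, Emx2 fell to 79.1% of its siNC mean. Whether this pattern of factors belongs to the kidney tubules of origin or was taken on in culture was not tested, since no fresh tissue or untreated culture was analysed here.

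**Figure D3:**
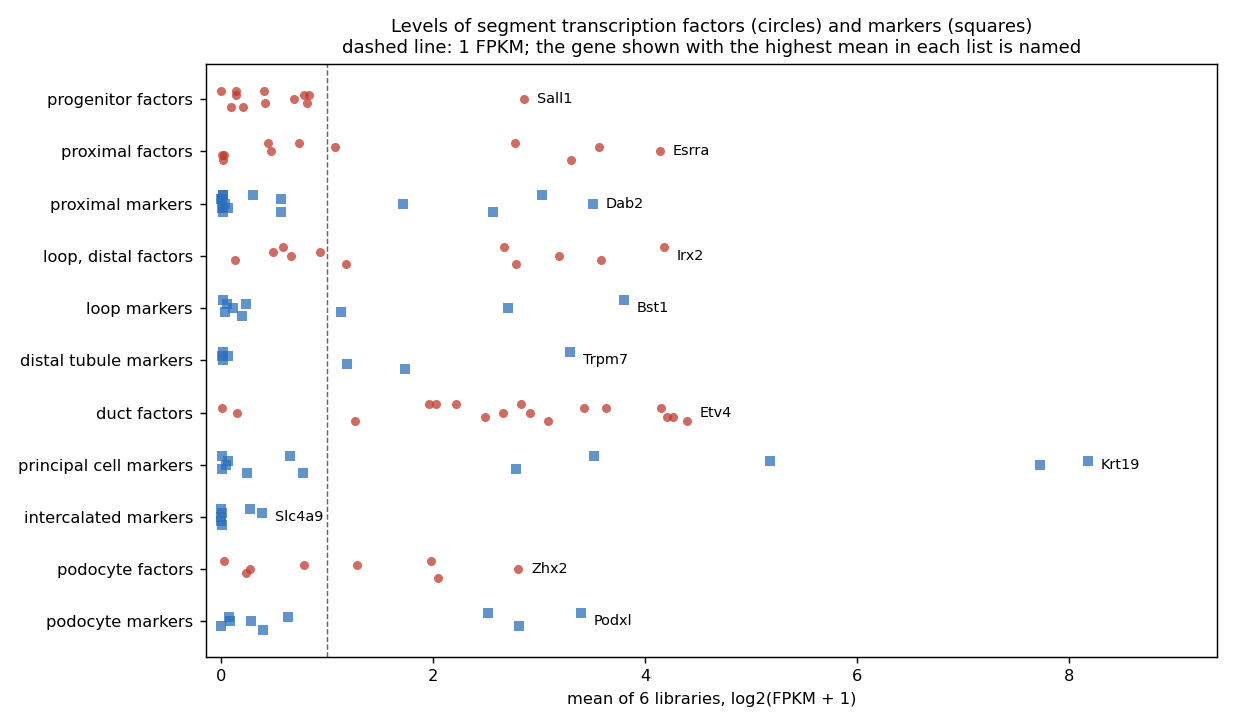
Mean of 6 libraries, in log2(FPKM + 1), of genes in the lists of segment transcription factors (circles) and segment markers (squares), with the dashed line at 1 FPKM and the highest gene shown in each list named; a few listed genes are not shown. Duct factors lie mostly to the right of the line (16 of 18 over the whole list, with 6 of 11 loop and distal, 4 of 8 podocyte, 6 of 13 proximal and 1 of 12 progenitor factors), and proximal and intercalated cell markers mostly to its left.

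Markers of other cells in the dish were as follows, and their part in the levels of the lineage factors was not tested. Podocyte markers reached 1 FPKM for 3 of 10, beside the low Wt1: Podxl, Cdkn1c and Synpo, an actin-associated protein, which fell from 6.79 ± 0.312 to 5.18 ± 0.431 FPKM (limma adjusted p = 0.00636). Nphs1, which defines the podocyte, was at 0 in every library. The summed mesothelial list, most of it Krt19 and Msln, was 366 to 368 FPKM with siSox9 and 342 to 345 FPKM with siNC. Of 7 listed urothelial markers 2 reached 1 FPKM, Psca and Upk3b, and 0 passed the test, also at an unadjusted p and by limma voom. Over all genes tested 30.4% passed the test.

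Non-epithelial markers ranged from under 1 FPKM to the level of Acta2, which was above that of E-cadherin (Cdh1). Of 9 listed stromal markers 2 reached 1 FPKM, Acta2 at 686 ± 29.8 and 727 ± 22.3 FPKM and Col1a1 at 5.79 ± 0.707 and 6.78 ± 0.498 FPKM, neither past the threshold (1 at an unadjusted p under 0.05, and lower by limma voom), and Pdgfrb stayed under it at 0.550 to 0.896 FPKM. Of 10 endothelial markers 3 reached 1 FPKM and 0 passed limma's test, 1 being lower at an unadjusted p under 0.05 and 0 of 2 by limma voom. The endothelial list summed to 7.97 to 8.41 FPKM with siSox9 and 8.20 to 10.9 FPKM with siNC. Over all genes tested 30.4% passed limma's test, 23.6% were lower at an unadjusted p under 0.05 and 20.8% were lower by limma voom. Of 10 immune markers 6 reached 1 FPKM, led by Lyz2, C1qa and C1qb, and the list summed to 170 to 189 FPKM with siSox9 and 170 to 175 FPKM with siNC. Lyz2, a macrophage lysozyme, rose from 71.9 ± 3.78 to 83.4 ± 3.91 FPKM (limma adjusted p = 0.0175).

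Injury markers moved in both directions while Emx2 fell. All 9 reached 1 FPKM, and 3 were higher and 4 lower with siSox9, where 12.8% of all genes tested were higher and 17.6% lower. Lcn2, which injured tubules secrete, rose from 94.7 ± 5.09 to 194 ± 2.06 FPKM (log2 difference 1.03, limma adjusted p = 4.82e-05), and Havcr1, the injury molecule KIM-1, rose from 65.4 ± 3.01 to 74.6 ± 4.66 FPKM (0.18, adjusted p = 0.0366). Vcam1 fell from 2.17 ± 0.0435 to 1.57 ± 0.0214 FPKM (-0.31, adjusted p = 0.00491). How these markers bear on the lineage factors was not tested.

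The tested genes whose pattern over the 6 libraries was most like each factor were listed by Pearson correlation of log2(FPKM + 1), as a description with no test, since libraries share the siRNA groups. For Emx2 they were Ethe1 (r = 0.997) and Snrpd2 (r = 0.995), and for Lhx1 they were Ptger4 (r = 0.996) and Ints3 (r = 0.992). Pax2 went most closely with Hspa1a (r = 0.998) and Hace1 (r = 0.993), and Pax8 with Gm12112 (r = 0.995) and Atmin (r = 0.987). For Gata3 they were Gm22200 (r = 0.988) and AC155305.1 (r = 0.981). With 6 points and 12009 genes to choose from, correlations of this size are no finding.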

How the data were processed

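RNA-Seq of 6 libraries was analysed, 3 with siSox9 and 3 with siNC. The values deposited by the authors are FPKM for each gene in each library. The submitters' processing notes name HISAT2 2.1.0, Bowtie2 2.2.3, TopHat2 and mm9 with no role, while 93.4% of the genes found in GENCODE M21 have the GRCm38 position given there. The counter, its treatment of strand and the annotation are not given in the sources used here. The columns named for the siRNA that is not siNC were taken as siSox9. The names of 25 genes read as dates and were left as they are.

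Limma 3.58.1 (lmFit, eBayes with a trend, R 4.3.3) was run on log2(FPKM + 1) for genes whose mean was 1 FPKM or more, which understates changes of low genes, with Benjamini-Hochberg adjustment over all genes tested and no replicate block. Intervals are 95% and not adjusted. Factors under that mean were taken from the same fit over all genes above 0 FPKM. Reads were recovered from FPKM by means of GENCODE M21 exon lengths. They came out whole within 0.02 reads in all libraries for 27948 genes. Intervals and floors cover counting error or library spread only. Libraries of the same group sizes were simulated with the same fixed spread between replicates for every gene and with few genes changed. In them the test called 74 of 100 genes changed by 0.5 on the log2 scale, 95 of 98 changed by 1 and 12 of 10229 unchanged genes. Neither the spread nor the share of changed genes was matched to the real libraries, so these rates need not hold for them.

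The lineage factors and all lists were chosen with earlier results of these data known. Named genes are the factors and Sox9, in each factor list the 3 largest changes past the threshold and the most abundant gene, in each marker list its 3 most abundant and first 3 genes, up to 4 targets past the threshold and the 2 most correlated genes of each tested factor. Some genes the rule allows are not reported here. Promoter sequences are from RefSeq. The alternatives were TPM, a pseudocount of 0.1, a minimum of 5 FPKM, no filter, median centring, quantile normalization, the replicate block, limma voom and leaving out each replicate. Tables and figures were made in Python 3.11.15 with pandas 2.3.3, numpy 2.4.6, matplotlib 3.10.9 and scipy 1.17.1.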

Additional observations from a re-analysis of the deposited data

How the results depend on the processing

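Emx2 kept its direction and its call in all 14 alternatives, and Pax8, Wt1 and Hnf4a stayed short of the threshold in all of theirs. For Wt1 and Hnf4a the alternative with no filter is the main fit itself. Wt1 ranged from -0.34 to -0.083 over its alternatives. The number of genes called was 2424 to 3654 with 1 library left out, 2424 being without siSox9 replicate 2, and 2549 to 3724 in the other alternatives. No filter called 2700 of 28122 genes. Of the other kidney transcription factors, 5 of 20 were called with a minimum of 5 FPKM, a set that holds fewer genes, and 8 to 10 of 32 with a library left out. Pax2 ranged from -0.22 to -0.11 with a library left out, and was -0.18 by limma voom. Lhx1 ranged from -0.28 to -0.15 with a library left out, was -0.30 by limma voom, and was called with the replicate block at -0.22. Gata3, near 0, turned sign to 0.0014 after median centring and 0.025 after quantile normalization, and ranged from -0.078 to 0.011 with a library left out. For these shifts the cause was not tested. The replicate numbers gave no sign of pairing, since same-numbered deviations correlated at 0.0649, -0.0504 and 0.00784. These values cannot exclude pairing, as the labels do not give the origin of the replicates. The block changed no other call of a lineage factor and called 3262 genes. At these depths Hnf4a at up to 3 reads allows no comparison, and 3 libraries a group leave differences as small as those of Pax2 and Lhx1 on either side of the threshold.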
